A study of Mus musculus with 8 samples.

Results

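The genes described here are 9 marker genes of the liver sinusoidal endothelium, Stab1, Stab2, Lyve1, Clec4g, Oit3, Gpr182, Dnase1l3, Fcgr2b and Mrc1, out of 23282 rows in count tables of mouse liver RNA. They are a list by name, and all 9 were present in the tables and passed the filter on low counts. Livers came from C57BL/6 mice, labelled as males of 4 weeks, in a study of the Wnt secretion inhibitor LGK974 in endotoxemia, the whole-body response to bacterial lipopolysaccharide (LPS). The control group received saline and the endotoxemic group received 25 mg/kg LPS by intraperitoneal injection. The libraries of the LGK974 group are labelled with LGK974 alone, without a dose and without LPS. The published account of this sequencing describes the group as given LPS at 25 mg/kg and also LGK974 at 60 mg/kg. By the study's methods, LGK974 preceded LPS by 2 h in most experiments, and the sequenced livers are not named separately. By the same methods, livers were taken 6 h after LPS. Each group was compared with the others to ask how the genes of this cell type stood in endotoxemic liver with and without LGK974.

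The sinusoids are the capillaries of the liver. Their endothelial cells have open pores, lack a continuous basement membrane and clear waste molecules from the blood by clathrin-mediated endocytosis through scavenger, mannose and Fc receptors. Several of these receptors are also made by resident macrophages of the liver (Kupffer cells) and by other cells, so that in RNA of whole liver their counts can come from more than 1 cell type. In bulk liver, fewer endothelial cells and less RNA per endothelial cell cannot be told apart.

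Counts of 3′-end reads (QuantSeq) were deposited for 8 libraries, but endotoxemic libraries 3 and 4 held the same counts as libraries 1 and 2 on every row, so that 6 libraries were distinct, 2 per group. Totals ran from 9142116 to 15222439 counts and 13990 to 15282 rows had counts. Levels are given below as CPM, the counts scaled to a common library size with TMM factors, on which 3 counts in a library correspond to 0.196 to 0.327 CPM. In what follows, values under saline, under LPS and under LGK974 are those of the control, endotoxemic and LGK974 groups. Differences were tested with edgeR's quasi-likelihood test in 1 fit of the 3 groups, with p-values adjusted over all 12701 genes tested. The labels do not say that libraries came from separate mice, so the p-values measure the spread between libraries only. Xist, the RNA of the inactive X chromosome, had 1444 and 3115 counts under saline, 1171 and 1884 under LPS and only 3 and 7 under LGK974. Ddx3y, a Y-linked gene, had no counts in the control and endotoxemic libraries and 1755 and 1392 under LGK974. The control and endotoxemic libraries thus went against their label of male, and in each comparison with the LGK974 group this difference and the treatment cannot be told apart.

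One of the 9 genes, Stab1, stood on a row whose neighbours were not its genomic neighbours. The rows of the tables follow the genome, but 581 of the 23146 rows with a RefSeq position lay out of that order. The Stab1 row lay between Ttc7b and 9030617O03Rik on chromosome 12, where Rps6ka5 belongs, whereas the row between the neighbours of Stab1 on chromosome 14 was labelled Il18. Across 443 such rows for which the gene at the place could be named, control and endotoxemic levels were hardly related when compared label by label (Spearman rho 0.063) and closely related when the endotoxemic count was taken from the place of the gene (0.808), against 0.931 across rows in order. These correlations are across rows of the same libraries, and are a description. Stab1 is therefore given both as deposited and with reassigned symbols, in which the endotoxemic and LGK974 counts come from the row at the place of the gene. The other 8 genes had genomic neighbours on both sides.

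Stab1, on chr14:31139013-31168641 (minus strand, GRCm38, GENCODE vM21), encodes stabilin-1, a scavenger receptor of sinusoidal endothelium and macrophages that takes up modified lipoproteins and matrix fragments. As deposited, its row held 148 and 246 counts under saline, 3 and 2 under LPS and 17 and 6 under LGK974. The summed control level was 54.9 times that of the endotoxemic group, with an exact interval of 23.3 to 170.0 that covers counting error only. The fitted log2 fold change was -5.74 ± 0.62 (SE, adjusted p = 0.000104) under LPS and -4.15 ± 0.51 (adjusted p = 0.000306) under LGK974 against control, the latter -5.16 without LGK974 library 1 and -3.53 without LGK974 library 2. With reassigned symbols the endotoxemic libraries held 90 and 95 counts and the LGK974 libraries 91 and 331. Levels were then 15.0 ± 1.67 CPM in the control group, 10 ± 0.218 under LPS and 14.7 ± 11 under LGK974 (mean ± SD, n = 2). The log2 difference from control was then -0.59 ± 0.47 (SE, adjusted p = 0.341) under LPS and -0.03 ± 0.45 (adjusted p = 0.97) under LGK974, so that neither call remained. Nt5dc2 overlaps Stab1 on the opposite strand, as antisense genes without rows of their own overlap Stab2, Clec4g and Fcgr2b, and whether reads were counted by strand is not given in the sources used here.

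**Figure D1:**
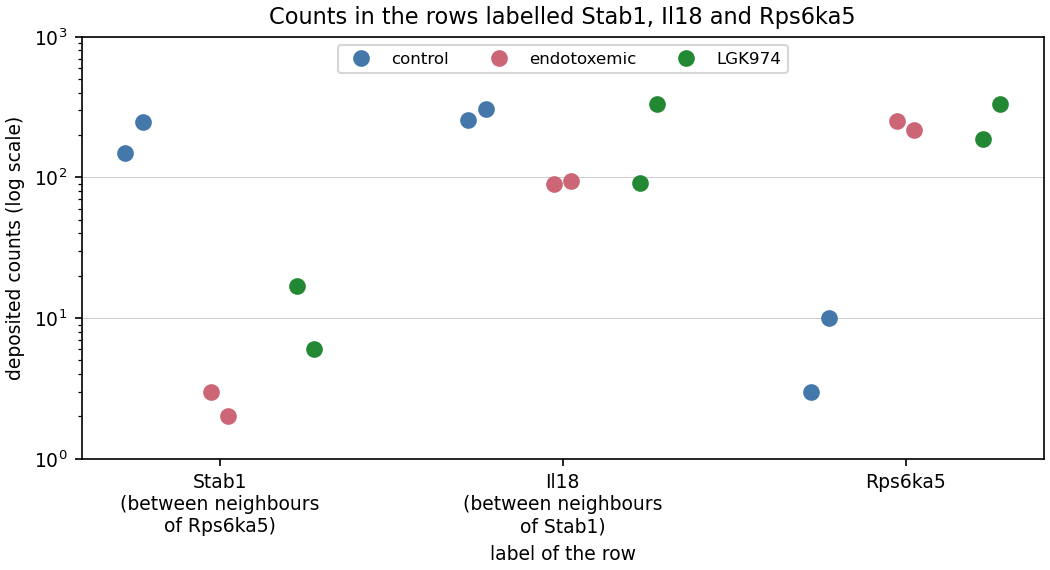
Deposited counts (log scale) in each of the 6 distinct libraries for the rows labelled Stab1, Il18 and Rps6ka5, coloured by group. The row labelled Stab1 held 148 and 246 counts in the control libraries and 2 to 17 in the others, whereas the row labelled Rps6ka5 held 3 and 10 in the control libraries and 187 to 331 in the others.

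Stab2, on chr10:86841198-87008025 (minus strand), encodes stabilin-2, which binds hyaluronan, heparin and other polyanions for clearance from blood. Its level was 19.0 and 19.1 CPM under saline, 11.1 and 12.0 under LPS and 9.81 and 6.7 under LGK974. Each control library was above every treated library. The LGK974 libraries were the lowest, but the log2 difference from the endotoxemic group, -0.49, was not called (adjusted p = 0.333). The log2 difference of the endotoxemic group from control was -0.72 ± 0.27 (SE), which did not pass the threshold of 0.05 (adjusted p = 0.0609). It passed without LGK974 library 1 (adjusted p = 0.0188), without LGK974 library 2 (0.0175) and with only those 2 groups in the fit (0.0215). In the LGK974 group Stab2 fell by 1.21 ± 0.28 on the log2 scale against control (adjusted p = 0.00897), a call lost without control library 1 (0.0522) or control library 2 (0.053).

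Mrc1, on chr2:14229392-14332057 (plus strand), encodes the mannose receptor, through which sinusoidal endothelium and macrophages take up glycoproteins, lysosomal enzymes and collagen chains. It was at 45.9 and 41.6 CPM under saline, 6.77 and 6.29 under LPS and 4.83 and 4.53 under LGK974. Replicates lay close together, and the difference between the treated groups was not called (adjusted p = 0.284). Mrc1 was 6.69-fold lower under LPS than under saline (log2 fold change -2.74 ± 0.24, adjusted p = 3.21e-05) and 9.32-fold lower in the LGK974 group (-3.22 ± 0.24, adjusted p = 1.74e-05). Both calls held with each library left out in turn.

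Clec4g, on chr8:3707064-3720651 (minus strand), encodes a C-type lectin of sinusoidal endothelium known as LSECtin. It had 777 and 1281 counts under saline, 55 and 74 under LPS and 29 and 13 under LGK974, which corresponds to 72.1 and 83.7, 6.0 and 7.89, and 2.19 and 0.88 CPM. The means fell in the order control, endotoxemic, LGK974. Clec4g was 11.2-fold lower in the endotoxemic group (log2 fold change -3.49 ± 0.34, adjusted p = 5.31e-05) and 51.1-fold lower in the LGK974 group (-5.68 ± 0.38, adjusted p = 8.7e-06) than in the control group, and both calls held with each library left out. The LGK974 value moved to -6.45 without LGK974 library 1 and to -5.14 without LGK974 library 2. It was also the only one of the 9 genes called between the LGK974 and endotoxemic groups, at 4.56-fold lower in the LGK974 group (log2 fold change -2.19, 95% interval -3.05 to -1.33, adjusted p = 0.0163). That call was lost without endotoxemic library 1 (adjusted p = 0.0679), without endotoxemic library 2 (0.143) and with only the 2 groups in the fit (0.0774). The log2 fold change itself was -2.96 without LGK974 library 1 and -1.66 without LGK974 library 2.

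Clec4g and Mrc1 had the largest fitted falls of the 8 genes on rows in genomic order, and the DNA before their starts is shown for that reason. RefSeq promoter windows (GRCm38.p6, 250 bases before to 50 after the start) were matched for 5 of the 9 genes: Clec4g, Mrc1, Stab1, Stab2 and Fcgr2b. The 100 bases directly before the outermost annotated start follow for both genes, with matches to the ETS motif (AGGAAG, or CTTCCT on the other strand) in capitals. The Clec4g stretch is chr8:3720696-3720795 (minus strand), and the antisense gene Gm16553 overlaps Clec4g. The Mrc1 stretch is chr2:14229292-14229391 (plus strand).
Clec4g: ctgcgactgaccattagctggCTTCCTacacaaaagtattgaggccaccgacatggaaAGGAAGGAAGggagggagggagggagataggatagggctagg
Mrc1: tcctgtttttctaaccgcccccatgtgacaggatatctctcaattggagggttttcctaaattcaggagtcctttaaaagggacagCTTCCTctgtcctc

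ETS factors such as Erg are known regulators of endothelial genes. The motif was in the whole windows of Clec4g, Mrc1, Stab1 and Stab2 but not in that of Fcgr2b, so in 4 of 5, while 35.4% of all 32851 windows held it. A pair of the matches before Clec4g share letters with each other. The core site TGCTGA of Maf factors was in the window of Stab1 alone, against 19.5% of all windows. AGATAA for GATA factors (11.2% of windows), TGANTCA for AP-1 (7.81%) and a motif of 10 letters for NF-kB (1.47%) were in none of the 5, searched on both strands. A match is a stretch of letters and was not tested as a binding site.

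Fcgr2b, on chr1:170958617-170976547 (minus strand), encodes the inhibitory Fc receptor for IgG, with which sinusoidal endothelium clears small immune complexes. Its level was 12.9 and 19.3 CPM under saline, 6.66 and 7.04 under LPS and 5.06 and 6.16 under LGK974. Both treated groups were below both control libraries. The log2 fold change of Fcgr2b was -1.24 ± 0.31 under LPS (adjusted p = 0.0106) and -1.52 ± 0.31 under LGK974 (adjusted p = 0.0049). The first call was lost without control library 2 (adjusted p = 0.106), endotoxemic library 1 (0.0839) or endotoxemic library 2 (0.0647), and the second without control library 2 (0.059).

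Oit3, on chr10:59422958-59441778 (minus strand), encodes a secreted protein with a zona pellucida domain that is used as a sinusoidal marker. It was at 34.5 and 25.7 CPM under saline, 9.27 and 10 under LPS and 12.1 and 12.7 under LGK974. Here the endotoxemic libraries were the lowest, but their difference from the LGK974 group was not called (adjusted p = 0.441). Oit3 fell by 1.64 ± 0.25 on the log2 scale under LPS (adjusted p = 0.000866) and fell by 1.28 ± 0.25 in the LGK974 group (adjusted p = 0.00387) against control, and without control library 1 the LGK974 call was lost (0.0516).

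Dnase1l3, on chr14:7964533-7994573 (minus strand), encodes a secreted DNase that digests DNA in chromatin and on microparticles. It had 97.6 and 102.0 CPM under saline, 46.5 and 45.6 under LPS and 33.4 and 15.8 under LGK974. The LGK974 libraries were the lowest and differed from each other more than those of the other groups. Dnase1l3 fell by 1.11 ± 0.31 on the log2 scale in the endotoxemic group (adjusted p = 0.0172) and fell by 2.02 ± 0.32 in the LGK974 group (adjusted p = 0.00127). The endotoxemic call did not hold when either control library or either endotoxemic library was left out (adjusted p = 0.0692 to 0.103), although the log2 fold change stayed between -1.15 and -1.07. Between the LGK974 and endotoxemic groups the log2 difference was -0.91 (95% interval -1.61 to -0.2, adjusted p = 0.124), and without LGK974 library 1 it was -1.54 and called (adjusted p = 0.000225), while without LGK974 library 2 it was -0.46 (0.166). Against control the log2 fold change under LGK974 was -2.66 and -1.57 without these libraries in turn.

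Gpr182, on chr10:127747276-127751732 (minus strand), encodes a receptor of endothelium that binds and removes chemokines without the usual G protein signal. Its counts were low, 21 and 39 under saline, 10 and 9 under LPS and 8 and 40 under LGK974. One LGK974 library was below and the other above all libraries of both other groups. No difference passed the test, with log2 values of -1.13 ± 0.76 (adjusted p = 0.256) under LPS and -0.44 ± 0.71 (adjusted p = 0.673) under LGK974 against control. Zbtb39 overlaps it on the opposite strand.

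Lyve1, on chr7:110850607-110863239 (minus strand), encodes a hyaluronan receptor of lymphatic vessels, sinusoidal endothelium and some macrophages, and was the only one of the 9 with a higher mean in both treated groups than under saline. It had 533 and 546 counts under saline, 3298 and 3153 under LPS and 5287 and 7366 under LGK974. These counts correspond to 49.5 and 35.7, 360.0 and 336.0, and 399.0 and 498.0 CPM, so that every treated library was far above both control libraries. Lyve1 was 8.18-fold higher in the endotoxemic group (log2 fold change 3.03 ± 0.24, adjusted p = 1.81e-05) and 10.6-fold higher in the LGK974 group (3.4 ± 0.24, adjusted p = 1.18e-05), and both calls held with each library left out. Its row lay between Rnf141 and Mrvi1, its neighbours on chromosome 7, and no annotated gene overlaps it. Of the 4 lymphatic endothelial markers listed, the 3 on rows in order summed to 36.4 and 38.8 CPM under saline, 25.3 and 28.1 under LPS and 30.1 and 31.8 under LGK974, none of them at 0 in any group. Reln, which stellate cells also make, was lower under LPS (-1.02, adjusted p = 0.014) and under LGK974 (-1.29, adjusted p = 0.00557). Pdpn was instead higher under LGK974 (1.87, adjusted p = 0.0379). Under saline Reln was at 19.8 CPM and Pdpn at 1.26 CPM, so that little of the sum came from Pdpn. Which cells made the RNA in this sum was not tested.

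**Figure D2:**
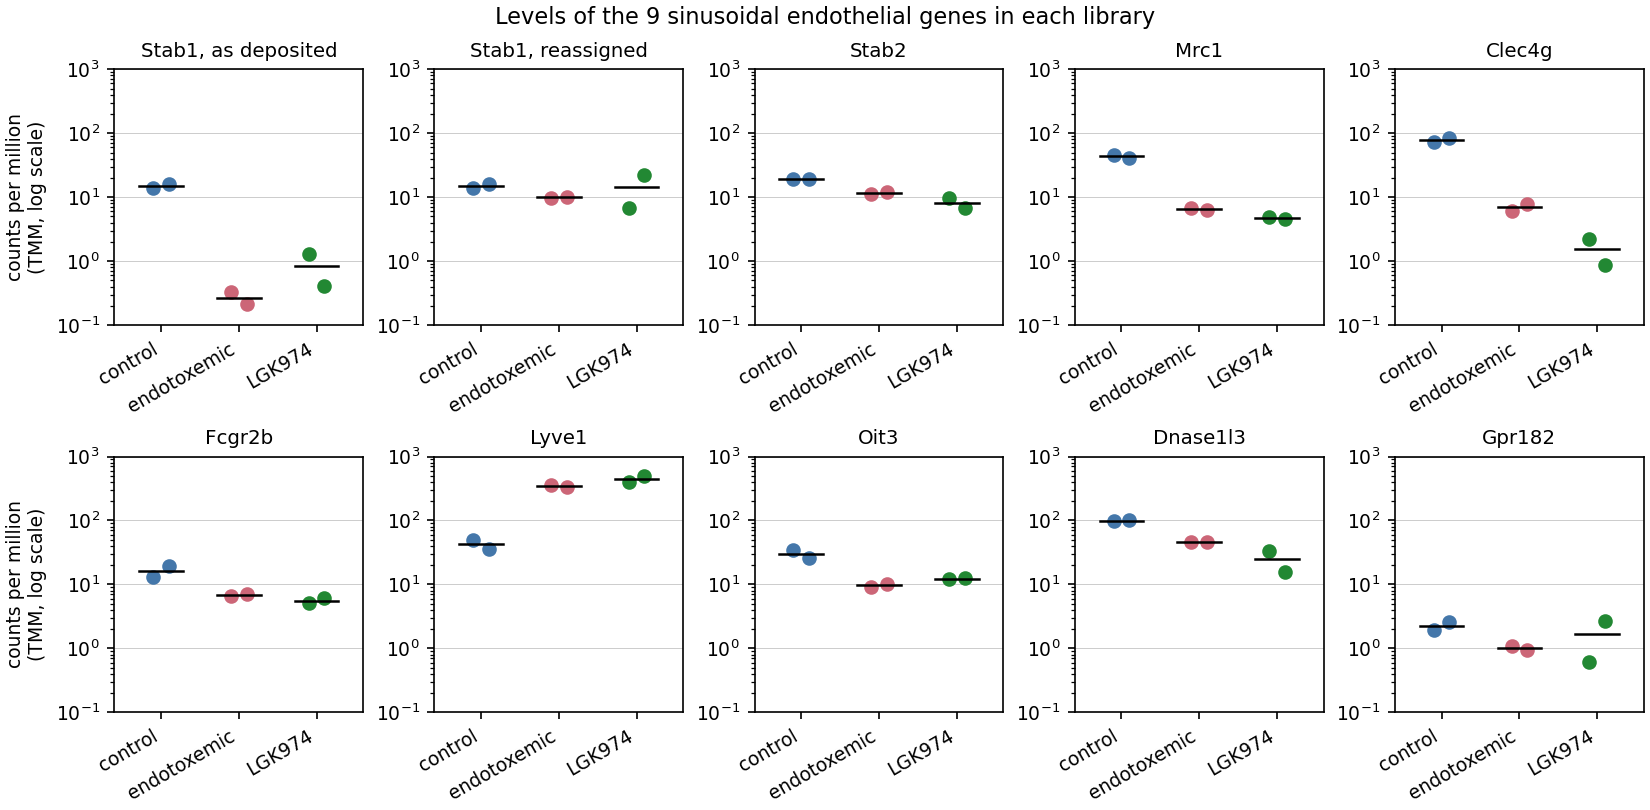
Level of each gene in each of the 6 distinct libraries (points, TMM-scaled CPM, log scale) by group, with the group mean as a bar, and with Stab1 shown as deposited and with reassigned symbols. Lyve1 is higher in all endotoxemic and LGK974 libraries than under saline, Clec4g and Mrc1 have the largest falls of the 8 genes on rows in order, and the LGK974 libraries spread widely for Gpr182 and reassigned Stab1.

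Counted together as deposited, 6 of the 9 genes were lower and 1 higher under LPS than under saline, while 23.0% of the 12701 genes tested were lower and 20.4% higher. The median log2 fold change of the 9 was -1.24, against 0.01 over all genes tested. On the 8 rows in genomic order, 5 were lower and 1 higher, with a median of -1.18. With reassigned symbols 5 of 9 were lower, where 22.7% of all genes tested were lower. The call was absent for Stab2 and Gpr182 in each of these counts. All 8 genes other than Lyve1 had lower means in the endotoxemic group.

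In the LGK974 group against control, 7 of the 9 genes as deposited were lower and 1 higher, with a median log2 fold change of -1.52, and 17.7% of all genes tested were lower and 16.4% higher. The median over all genes was 0.02. On rows in order 6 of 8 were lower and 1 higher, and with reassigned symbols 6 of 9 were lower, where 17.1% of all genes were lower. Both comparisons used the same control libraries, and the values of each gene for both stand side by side above.

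Between the LGK974 and endotoxemic groups, 1 of the 9 genes was lower (Clec4g) and none higher, where 2.82% of all genes tested were lower and 2.8% higher. At an unadjusted p below 0.05 in the edgeR test there were 2 of the 9, Clec4g and Dnase1l3, as there were 2911 of all 12701 genes, and DESeq2 called 1 of the 9. The 95% intervals of the log2 difference were -1.12 to 0.14 for Stab2, -1.03 to 0.08 for Mrc1, -1.0 to 0.43 for Fcgr2b, -0.21 to 0.93 for Oit3 and -0.13 to 0.86 for Lyve1. These intervals allow changes in either direction, the widest being -1.03 to 2.42 for Gpr182. Among the 8 genes on rows in order, the mean in the LGK974 group was farther from control for Stab2, Mrc1, Clec4g, Fcgr2b, Dnase1l3 and Lyve1 and nearer to control for Oit3 and Gpr182 than the mean under LPS, and of these differences the test called only that of Clec4g.

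**Figure D3:**
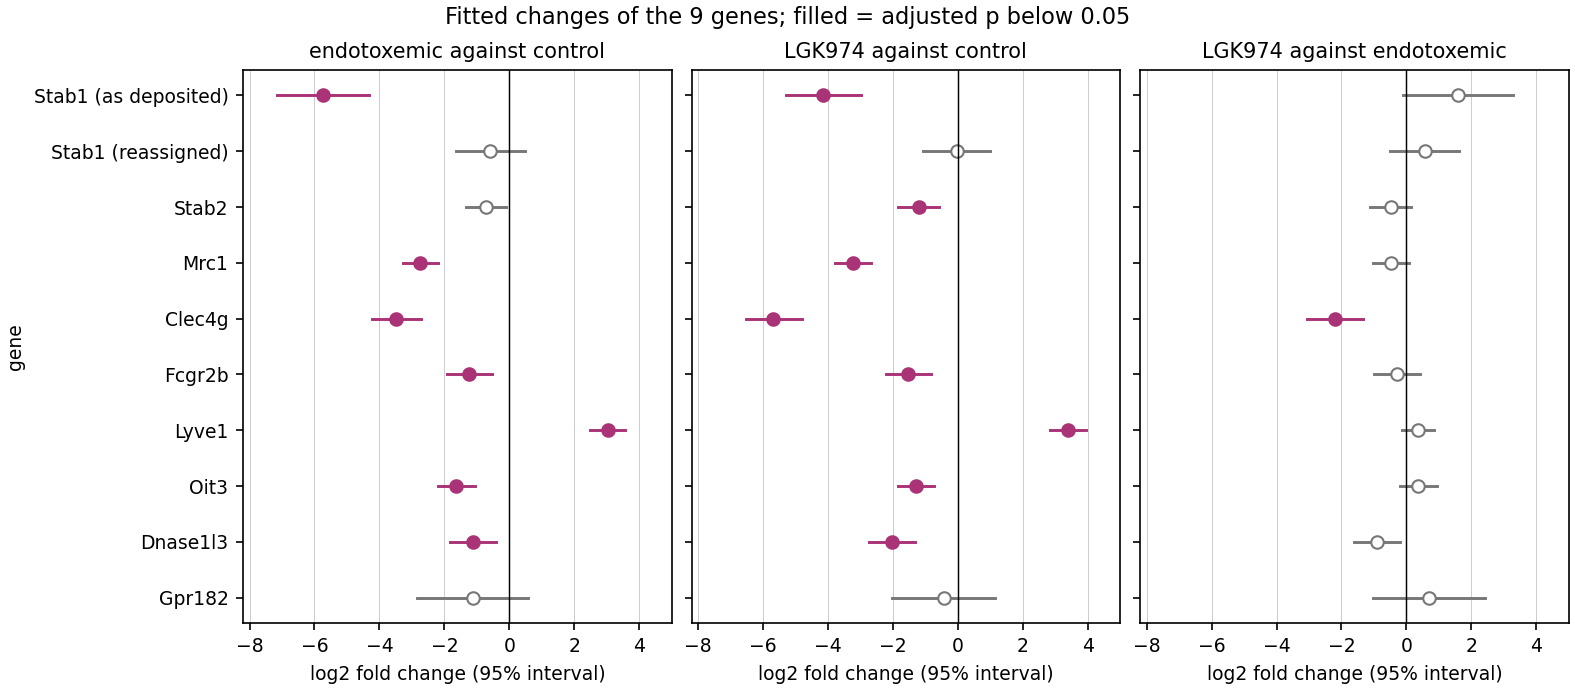
Fitted log2 fold change of each gene (points) with its 95% interval (lines) in 3 comparisons, with filled points for adjusted p below 0.05. Lyve1 lies to the right of 0 and Clec4g, Mrc1, Oit3, Fcgr2b and Dnase1l3 to the left against control, whereas between the LGK974 and endotoxemic groups only Clec4g is filled.

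Counts over further gene lists stand beside the same shares of all genes tested, 23.0% lower and 20.4% higher under LPS and 17.7% lower and 16.4% higher under LGK974 against control, and no list was tested as a whole. Of 20 other genes of sinusoidal endothelium, listed apart from the 9, 17 stood on rows in order and 15 were tested, and 10 of these fell in the endotoxemic group and 1 rose (median log2 fold change -1.48). Kdr, the main receptor for VEGF-A, went from 697 and 988 counts under saline to 8 and 21 in the endotoxemic libraries (log2 fold change -5.36 ± 0.74, adjusted p = 0.000448). Tek, the receptor of the angiopoietins, had 61 and 75 counts under saline and none under LPS, at least 16.1-fold lower against a floor of 3 counts per library. Wnt2, a Wnt ligand secreted by sinusoidal endothelium, fell by 4.03 ± 0.86 (adjusted p = 0.00507). The single gene that rose was Thbd, the anticoagulant receptor thrombomodulin (2.73, adjusted p = 0.000964), named here after its value was seen.

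In the LGK974 group 9 of the 15 genes were lower and 1 higher than under saline (median -1.44). Ehd3, an endocytic recycling protein, fell by 4.25 ± 0.25 (adjusted p = 3.43e-06) and Thbd rose by 4.08 ± 0.44 (adjusted p = 0.000136). Against the endotoxemic group, 2 of the 15 were higher and 1 lower, where 2.8% of all genes tested were higher and 2.82% lower. Tek had 8 and 25 counts under LGK974 and none in the endotoxemic libraries, at least 3.5-fold higher (adjusted p = 0.041). Maf, a transcription factor of sinusoidal identity, was higher (1.24 ± 0.24, adjusted p = 0.0209), and Ehd3 was lower (-1.17 ± 0.23, adjusted p = 0.0236). The summed level of the list was 536 and 507 CPM under saline, 128 and 127 under LPS and 144 and 251 under LGK974.

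Of 19 genes of endothelium in general, 4 were lower and 4 higher in the endotoxemic group (median -0.61), close to the 23.0% lower and 20.4% higher of all genes. Ptprb, an endothelial phosphatase that acts on Tek, fell by 3.54 ± 0.32 (adjusted p = 3.63e-05) and Adgrl4, an adhesion receptor, fell by 2.79 ± 0.4 (adjusted p = 0.000566). Ecscr, a surface protein of endothelium, rose by 2.48 ± 0.36 (adjusted p = 0.000587), and the other genes that rose were Esam (2.15), Cdh5 (1.79) and Robo4 (0.92), named after their values were seen. In the LGK974 group 3 of the 19 were lower and 3 higher than under saline (median -0.14), close to the 17.7% and 16.4% of all genes. Against the endotoxemic group 1 was higher, Ptprb (1.3, adjusted p = 0.0437), and 0 were lower. The list summed to 351 and 344 CPM under saline, 308 and 328 under LPS and 249 and 424 under LGK974.

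As a percent of that sum in the same library, Clec4g went from 20.6 and 24.4 under saline to 1.95 and 2.4 in the endotoxemic and 0.879 and 0.208 under LGK974. Mrc1 went from 13.1 and 12.1 to 2.2 and 1.92 and to 1.94 and 1.07. Lyve1 went from 14.1 and 10.4 to 117.0 and 102.0 and to 160.0 and 118.0. The sum moved far less than these 3 genes did. Their directions on this scale could therefore hardly differ from those in CPM, and the scale adds no test. Gpr182, at 0.556 and 0.741 under saline and 0.243 and 0.639 under LGK974, overlapped between these groups. So did reassigned Stab1, at 3.95 and 4.71 and at 2.77 and 5.31. Oit3 was at 9.85 and 7.47 under saline, 3.01 and 3.05 under LPS and 4.85 and 2.99 under LGK974.

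Markers of other cells moved in the same libraries. Of 13 Kupffer cell and macrophage markers, 10 stood on rows in order, and in the endotoxemic group 5 fell and 1 rose (median -0.45), while in the LGK974 group 6 fell and 1 rose (median -1.19). Vsig4, a complement receptor of Kupffer cells, fell by 2.76 ± 0.37 (adjusted p = 0.000352) in the endotoxemic group and Marco, a scavenger receptor of macrophages, rose by 3.7 ± 0.29 (adjusted p = 1.89e-05). Clec4f, a lectin of Kupffer cells, was lower under LGK974 than in the endotoxemic group (-1.3 ± 0.24, adjusted p = 0.0187). The list summed to 255 and 263 CPM under saline, 244 and 251 under LPS and 154 and 190 under LGK974, with none of its genes at 0 in any group. The part of macrophages in the values of Mrc1, Stab1 and Fcgr2b was not tested.

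Of 12 neutrophil and monocyte markers, 6 stood on rows in order and 5 were tested. All 5 rose in the endotoxemic group (median 4.62) and 4 rose in the LGK974 group (median 3.44). Camp and Ngp, without counts under saline, passed the filter on low counts only through the treated groups, so that their direction was fixed by the filter. The 6 genes on rows in order summed to 2.04 and 2.88 CPM under saline, where Mpo, Camp and Ngp were at 0. The sum was 65.5 and 78.3 under LPS and 56.1 and 49.9 under LGK974. Ngp, a neutrophil granule protein, had 265 and 283 counts in the endotoxemic libraries, at least 106-fold higher than the control group against the floor of 3 counts per library. Of 11 lymphocyte markers 4 were tested and Ncr1 was at 0 in every group, and the 11 summed to 9.75 and 4.77 CPM under saline, 3.93 and 7.46 under LPS and 1.59 and 1.56 under LGK974.

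Of 10 stellate cell markers 5 fell and 1 rose in the endotoxemic group (median -1.54), and in the LGK974 group 3 fell and 1 rose. The summed level of the list was nevertheless higher under LPS, at 624 and 583 CPM, than under saline, at 491 and 506 CPM, and was 501 and 599 under LGK974. Such a sum is weighted towards abundant genes. Under LPS Lrat, Reln, Col1a1, Colec11 and Pdgfrb fell and Dcn rose (0.6, adjusted p = 0.0314), named after their values were seen. Of 8 hepatocyte markers on rows in order, 5 fell and 1 rose in the endotoxemic group (median -1.09) and 4 fell and 1 rose in the LGK974 group (median -0.87). Their sum was 127000 and 90900 CPM under saline, 102000 and 73600 under LPS and 78700 and 81200 under LGK974. This sum includes the single gene that rose, Fgb, with means of 10100 CPM under saline, 42800 under LPS and 39800 under LGK974. Of 5 cholangiocyte markers, Sox9 rose (3.12 ± 0.45, adjusted p = 0.000539) and Krt19 fell in the endotoxemic group, where Krt19 had 0 and 1 counts.

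**Figure D4:**
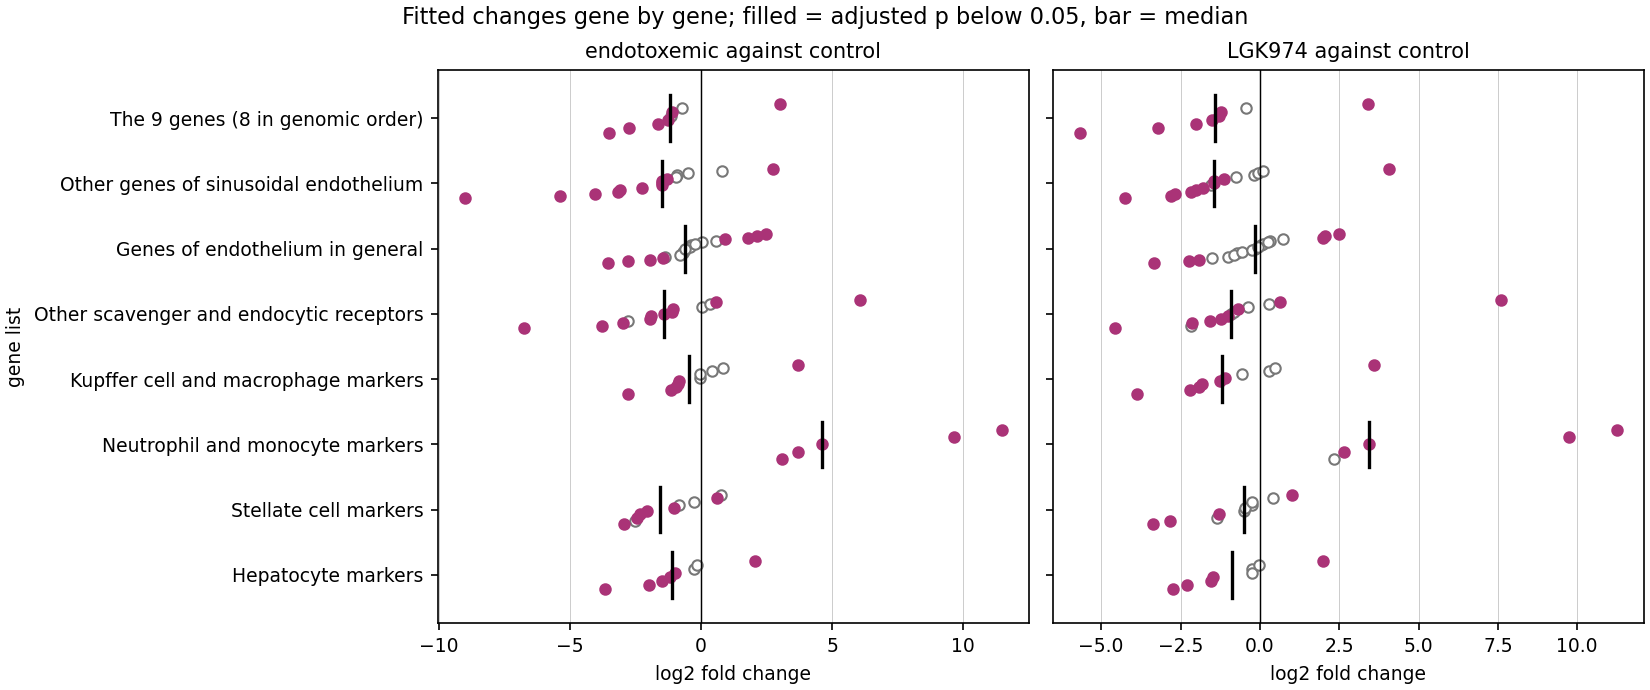
Fitted log2 fold change of each tested gene (points) in the 9-gene list, here its 8 genes on rows in order, and in 7 other lists, with filled points for adjusted p below 0.05 and a bar at the median. Points beyond 6 in either direction belong to genes with counts at or near 0 in 1 group, whose fitted size is not a measured fold. The bar lies at -1.18 for the 8 genes and at 4.62 for the neutrophil and monocyte markers in the endotoxemic group.

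Of 13 other scavenging receptors tested on rows in order, 8 fell and 2 rose in the endotoxemic group (median -1.42), where 23.0% of all genes fell and 20.4% rose. In the LGK974 group 6 fell and 2 rose (median -0.92), where 17.7% of all genes fell and 16.4% rose. Cd209f fell in both and passed the filter on low counts only through the control group. Scara5 rose in both and passed it only through the treated groups. Asgr2, a subunit of the asialoglycoprotein receptor of hepatocytes, fell by 2.13 ± 0.26 (adjusted p = 0.000308) in the LGK974 group. Scara5, a receptor for ferritin, had 2 counts in all under saline, 58 and 50 under LPS and 228 and 252 under LGK974. The general machinery of clathrin uptake and lysosomes had a median of 0.1 over 21 genes in the endotoxemic group, with 5 lower and 4 higher, close to the 23.0% and 20.4% of all genes. Cltb, a clathrin light chain, rose by 1.33 ± 0.2 (adjusted p = 0.000799) and Ap2a2, a subunit of the clathrin adaptor, fell by 1.15 ± 0.37 (adjusted p = 0.0301).

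Of 7 genes of arteries, veins and capillarized endothelium tested on rows in order, 1 rose and 1 fell in the endotoxemic group (median -0.53). In the LGK974 group 2 rose and 0 fell against control (median -0.63). Against the endotoxemic group, Cd34 was higher under LGK974 (2.85, adjusted p = 0.0149) and Gja4 lower (-1.79, adjusted p = 0.00931). Genes around single functions of the 9 were described in the same way. Of 8 genes of hyaluronan turnover tested, beside the receptor Lyve1, 4 rose and 2 fell in the endotoxemic group (median 0.62). Among those that rose, Has1 had no counts under saline and passed the filter on low counts only through the treated groups. Tmem2, a surface hyaluronidase also named Cemip2, rose by 1.57 ± 0.22 (adjusted p = 0.00048). Of the Fc gamma receptors and partners only Fcgr4 and Fcgrt stood on rows in order. Fcgr4, an activating receptor whose row lies next to that of Fcgr2b, rose by 3.87 ± 0.41 (adjusted p = 8.39e-05), and Fcgrt, the receptor that recycles IgG and albumin, fell by 2.21 ± 0.28 (adjusted p = 0.000279). Of 5 other DNases tested, 3 fell and 1 rose in the endotoxemic group, with Trex1, which digests DNA in the cytosol, higher by 3.26 ± 0.47 (adjusted p = 0.000554) and Dnase2b at -1.91 ± 0.35 (adjusted p = 0.00232). Of the atypical chemokine receptors only Ackr3 was tested on a row in order, and it rose in the LGK974 group against control (3.66 ± 0.64, adjusted p = 0.00226).

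For each of the 8 genes on rows in order, the tested genes with the most similar profile over the 6 libraries were found by Euclidean distance on log2 CPM centred on the control mean, among 12223 genes. Stab2 lay nearest to Nav2 (distance 0.23, Pearson r 0.991), Mrc1 to Slc1a2 (0.33, r 0.996), Oit3 to Ptk2b (0.25, r 0.994) and Fcgr2b to Lap3 (0.23, r 0.99). Clec4g lay nearest to the organic anion transporter Slco1a4 (0.49, r 0.996) and to Cyp3a41a (0.8, r 0.992), a cytochrome P450 known for higher expression in female than in male mouse liver. Dnase1l3 lay nearest to Dct (0.47, r 0.992) and Gpr182 to Tmem218 (0.45, r 0.975). The profiles share libraries, group steps and depth, and the values are a description. Lyve1 lay farther than Stab2, Mrc1, Oit3 and Fcgr2b from its nearest gene, Uchl1 (0.55, r 0.99). The distance damps differences at low counts, and the fitted log2 fold changes of Uchl1, 7.04 under LPS and 7.23 under LGK974, were far larger than those of Lyve1.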

How the data were processed

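RNA from whole liver was sequenced from its 3′ ends with the QuantSeq kit. The authors deposited 1 table of whole-number counts per gene symbol for each library. Their processing notes name Bowtie2, edgeR and the mm10 build, without versions. Counting settings, including strand, are not given in the sources used here, and the depth was 9142116 to 15222439 counts per library.

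Endotoxemic libraries 3 and 4, which repeat 1 and 2, were counted once. The 3 groups were fitted together with edgeR 4.0.16 (R 4.3.3) after filterByExpr and TMM scaling (12701 genes tested), and tested by quasi-likelihood, with p-values adjusted after Benjamini and Hochberg over all genes tested and a threshold of 0.05. Rows were called out of order when more than 2 Mb from the sequence of RefSeq positions (GRCm38.p6), and reassigned symbols rest on 443 matched rows. The exact interval of a count ratio and the floors (3 counts) cover counting error only, whereas the 95% intervals of log2 fold changes come from the fit and include the spread between libraries.

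The 9 genes and the other gene lists were chosen with earlier results of these data known. All 9 genes are named, with up to 3 called genes of largest change per other list and comparison on rows in order and the nearest genes by profile. Lists are described by counts and medians without a test of the list. Alternatives were DESeq2 1.42.0, other scaling and filters, a replicate block, 2-group fits, reassigned or omitted out-of-order rows, the identical libraries counted separately, and each library left out.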

Additional observations from a re-analysis of the deposited data

How the results depend on the processing

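Of 422 log2 fold changes of the 9 genes under alternatives, 396 kept their direction and side of the threshold, 16 lost and 8 gained a call, and 2 changed sign. Both changes of sign were those of Gpr182 without 1 LGK974 library, at -0.75 (range -0.75 to 1.39) against the endotoxemic group without LGK974 library 2 and 0.26 (range -1.88 to 0.26) against control without LGK974 library 1. Between the LGK974 and endotoxemic groups the number of the 9 genes called was 1, and 2 with no filter on low counts, 0 with only the 2 groups compared, 3 with identical libraries counted separately and 0 to 2 with a library left out. The number of all genes called there was 714, and 1705 with no filter, 1227 with DESeq2, 269 with only the 2 groups, 3259 with identical libraries counted separately and 49 to 2242 with a library left out. With a library left out, all genes called ranged from 3432 to 6719 under LPS and from 2372 to 5369 under LGK974 against control, and of the 9 genes 5 to 8 and 6 to 8 were called. The cause was not tested. Libraries with the same number shared little beyond it (correlation of deviations 0.14, 0.0605 and -0.00749), and with the replicate number as a block 7 of the 9 genes were called under LPS and 8 under LGK974 against control, and 1 between the treated groups, as without it. Stab1 and Gpr182 gave no value with at least 10 counts in every library, nor Stab1 with rows out of order left out, nor between the LGK974 and endotoxemic groups with only those compared. Where an interval of a log2 difference spans 0, no difference was detectable with 2 libraries per group at this depth.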
